A study of Rattus norvegicus with 12 samples.

Results

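The 10 genes described here are well-known targets of the transcription factor p53 or brakes on the cell cycle: Gdf15, Cdkn1a, Mdm2, Ccng1, Gadd45a, Fas, Bax, Plk2, Phlda3 and Btg2. They were taken by gene symbol from 2 tables of gene expression in rat cells, which together list 20400 genes, and all 10 were found in both tables and tested in both. RNA was sequenced in 12 libraries, 3 in each of 4 groups, all from wild-type rat bone marrow mesenchymal stem cells (BMSCs) kept in chondrogenic medium. BMSC-C was the untreated control. In BMSC-CT the cells were given CTGF (connective tissue growth factor) over 1 week, then TGF-β1, by which the series makes them fibrotic. BF-C and BF-D carry the label fibrotic BMSCs; the series text calls such cells induced fibrotic chondrocytes. BF-C was their control, and BF-D received docetaxel, a microtubule-stabilizing cancer drug. Neither the dose nor the time of docetaxel is labelled, nor the dose of the growth factors, nor how the BF cells were prepared. Nothing states that the replicates came from separate cultures, so the p-values measure only the spread between libraries, which may be technical.

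p53 is held low in unstressed cells by MDM2, a ubiquitin ligase that marks it for degradation. Damage or stress relieves that hold, and p53 then switches on genes that stop the cell cycle, promote cell death, secrete signals or restore MDM2 itself. Several of these genes also answer to other inputs: Cdkn1a is a known target of TGF-β signalling through SMAD proteins, and Gdf15 and Gadd45a are known to rise in the stress response run by the factors ATF4 and CHOP. Docetaxel blocks the disassembly of microtubules, and cells that fail in mitosis under such drugs are known to activate p53.

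p53 binds DNA through decamers, 10-letter units that it uses in pairs, and one decamer was looked for in the promoters of these genes as background to their expression. RefSeq promoters on the rat build GRCr8 run from 250 bases before to 50 bases after the start of transcription. Of 33469 such promoters, 2671 held at least 1 match to the consensus decamer on either strand, which is 7.98%. For these genes 9 had a promoter in the table, Gdf15 with 2, and Bax was not matched. A match stood in 3 of these 9 genes, Gadd45a, Ccng1 and Cdkn1a, or in 3 of the 10 promoters of the 9 genes. The genes were picked as known p53 targets or cell cycle brakes, and their share was not tested against that of all promoters. Sequences are given for every match found. Gadd45a and Cdkn1a are among the genes that rose with CTGF and TGF-β1, and Ccng1 is not. Gdf15 and Fas, which also rose, had no match in this window. Capitals mark the decamer, and each line reads 5′ to 3′ on the strand of the gene.
Cdkn1a, chr20:7150701-7150780, plus strand: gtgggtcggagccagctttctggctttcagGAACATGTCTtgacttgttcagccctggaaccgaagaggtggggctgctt
Gadd45a, chr4:97486800-97486877, minus strand: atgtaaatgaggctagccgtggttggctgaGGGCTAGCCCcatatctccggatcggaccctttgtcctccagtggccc
Ccng1, chr10:25685059-25685126, minus strand: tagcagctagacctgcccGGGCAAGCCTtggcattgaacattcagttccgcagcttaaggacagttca
The decamer began 201 bases before the start in Cdkn1a, 48 bases before it in Gadd45a and 232 bases before it in Ccng1. A match is a stretch of letters and not a measured binding site. The other promoters do not hold these letters in this window, which says nothing of sites elsewhere in those genes.

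Depth ran from 15580310 to 19870047 reads per library, of which the 10 genes together took 0.106% to 0.230% in each library. One treated library stood apart in each comparison. In BMSC-CT replicate 3, 14621 genes were detected (16100 or more elsewhere in that table), with 13.3% of reads on ribosomal protein genes (5.76% or less elsewhere). In BF-D replicate 2 ribosomal protein genes made up 2.57% of reads (1.65% or less elsewhere in that table). In both libraries short genes were high and long genes low relative to their own group, with a Spearman rho across genes between length and deviation from the group mean of -0.40 and -0.36. Fold changes of the 10 genes and medians of gene lists are therefore given with and without these libraries. The labelled cell type was checked against markers. Summed macrophage markers took 0.850% to 1.02% of reads in control BMSCs and 0.983% to 1.31% after treatment, with all 12 of 12 markers detected. In BF-C they took 0.0041% to 0.0044%, with 11 of 12 detected and Mrc1 at 0, and in BF-D 0.0056% to 0.0063%. Mesenchymal markers took 0.495% to 0.502% of reads in BMSC-C and 0.527% to 1.04% in BMSC-CT. Their share was 5.04% to 5.12% in BF-C and 3.85% to 4.57% in BF-D, with all 8 of 8 detected in each group. In BMSC-CT the log2 fold change of normalized counts was above 0 for 2 of these 8, Col1a1 and Eng, with a median of -0.61. For the macrophage markers it was above 0 for 6 of 12, with a median of -0.09. Without BMSC-CT replicate 3 these were 3 of 8 with -0.35 and 7 of 12 with 0.15. Of 8 cartilage markers, 7 had reads in BMSC-C, BF-C and BF-D, and 5 had reads in BMSC-CT. Together they took 0.0032% to 0.0050% of reads in BMSC-C and 0.0036% to 0.0152% in BMSC-CT. In BF-C this share was 0.0478% to 0.0505%, and in BF-D 0.0325% to 0.0395%. Of the defining cartilage markers, Col2a1 is not listed in the table of the BMSC groups and Acan is not listed in that of the BF groups. In such bulk RNA a change in the share of a cell type cannot be told apart from a change in RNA per cell, and the part of macrophages in the values of the 10 genes was not tested.

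CTGF followed by TGF-β1 went with higher levels of 4 of the 10 genes and a lower level of 1. Gadd45a rose 6.02-fold, Gdf15 5.02-fold, Fas 3.69-fold and Cdkn1a 2.65-fold in BMSC-CT, while Btg2 was 2.43-fold lower. Bax and Phlda3 were also higher in every treated library but missed the threshold with all libraries in the fit. Mdm2, Ccng1 and Plk2 overlapped between the groups. The test was limma on log2(normalized count + 1), fitted and adjusted over 16818 genes, and a gene was called at an adjusted p (Benjamini-Hochberg) below 0.05; fold changes are on that log2 scale. Their size depends on the scaling. For Gadd45a, Gdf15, Fas, Cdkn1a and Btg2 the log2 values were 2.59, 2.33, 1.88, 1.41 and -1.28. Scaled to total reads they were 2.17, 1.91, 1.46, 0.99 and -1.70, with the same calls. Over all these genes, 7.7% were called higher and 10.9% lower. Treated and control libraries did not overlap for 6 of the 10 genes on the higher side, where the share over all genes was 23.3%, and for 1 on the lower side, where it was 28.9%. The median log2 fold change of the 10 genes was 1.35, against -0.15 for all genes tested. Without BMSC-CT replicate 3 these medians were 0.83 and -0.08, 6 of the 10 genes were called higher, with 19.5% over all genes, and 1 lower, with 23.5%. On the recovered reads edgeR called the same 4 higher and Btg2 lower, at 8.05% and 9.51% of all genes, and DESeq2 added Bax and Phlda3 to them, at 16.5% and 16.4%. With library weights limma called all 10, 7 higher and 3 lower, but then also 33.7% and 39.8% of all genes.

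Among the genes that act on the cell cycle, Cdkn1a encodes p21, the inhibitor of cyclin-dependent kinases through which p53 stops cells before DNA synthesis. Its normalized counts were 2910.4, 2885 and 3839 in BMSC-C and 6544, 7747 and 11888 in BMSC-CT. Every treated library was above every control, and replicate 3 was the highest. The log2 fold change was 1.41 (SE 0.28, 95% interval 0.74 to 2.08, n = 3 per group, limma adjusted p = 0.0201). Without replicate 3 of BMSC-CT it was 1.16, with an adjusted p of 0.0012 by limma. The call for Cdkn1a was lost when other libraries were left out: the limma adjusted p was 0.0649 without BMSC-CT replicate 2, and 0.100, 0.104 and 0.0547 without BMSC-C replicate 1, 2 and 3. Its value then stayed between 1.34 and 1.54.

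Gadd45a, whose protein binds p21 and CDK1 and slows entry into mitosis after damage, had the largest fold change of the 10. It stood at 1263, 1711 and 1525 normalized counts in BMSC-C and at 8961, 7158 and 11221 in BMSC-CT. The lowest treated library was several times the highest control. The log2 fold change was 2.59 (SE 0.24, interval 2.01 to 3.17, limma adjusted p = 0.0016); leaving out BMSC-CT replicate 3 gave 2.43.

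Btg2, an antiproliferative gene that p53 induces and whose protein recruits mRNA deadenylation, went the other way. It had 739, 767 and 847 normalized counts in BMSC-C and 281, 324 and 367 in BMSC-CT, with no overlap. Its log2 fold change was -1.28 (SE 0.21, interval -1.77 to -0.79, limma adjusted p = 0.0102); leaving out BMSC-CT replicate 3 gave -1.37. With 1 control library left out the limma adjusted p was 0.0562, 0.0706 and 0.0524 for BMSC-C replicate 1, 2 and 3, with values from -1.32 to -1.22.

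Ccng1, the p53-induced cyclin G1, which in mouse cells is known to steer a phosphatase to MDM2, had 3422, 3350.1 and 2302 normalized counts in BMSC-C and 2796, 1962 and 2451 in BMSC-CT. The groups overlapped, and the log2 difference of -0.32 had an interval of -0.92 to 0.27 (limma adjusted p = 0.351); it was -0.35 with BMSC-CT replicate 3 left out. Plk2, a polo-like kinase with a role in centriole duplication, had 779, 674 and 725 in BMSC-C and 944, 929 and 688 in BMSC-CT. Its log2 difference of 0.22 had an interval of -0.29 to 0.73 (limma adjusted p = 0.452), and it was 0.37 without BMSC-CT replicate 3 (limma adjusted p = 0.0577). Scaled to total reads, the difference of Plk2 was -0.20.

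Among the genes of cell death, Fas, the death receptor at the cell surface, had the lowest level per length of the 10 in BMSC-C. It had 158, 127 and 142 normalized counts in BMSC-C and 494, 514 and 570.1 in BMSC-CT. The groups were far apart relative to their spread, with means of 142 ± 15.4 and 526 ± 39.6 (SD, n = 3). The log2 fold change was 1.88 (SE 0.22, interval 1.36 to 2.41, limma adjusted p = 0.0033); leaving out BMSC-CT replicate 3 gave 1.82.

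Bax, the pore-forming protein of the mitochondrial outer membrane, had 1137, 1754 and 1668 normalized counts in BMSC-C and 2468, 2981 and 10073 in BMSC-CT. Replicate 3 was 3.70 times the mean of the other treated libraries, while the median gene had a ratio of 0.963. The log2 fold change of Bax was 1.49 with an interval of 0.19 to 2.79 and missed the threshold (limma adjusted p = 0.0967). Without that library it was 0.86 and was called (limma adjusted p = 0.0110).

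Phlda3, whose protein competes with the kinase AKT for membrane lipids and so dampens survival signalling, showed the same arrangement. It had 2150.3, 3796 and 3729 normalized counts in BMSC-C and 4819, 6048 and 15495 in BMSC-CT, with replicate 3 at 2.85 times the mean of the others. Its log2 fold change was 1.30 (interval 0.14 to 2.45, limma adjusted p = 0.101), and 0.79 without replicate 3 (limma adjusted p = 0.0357).

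Mdm2, the gene through which p53 limits itself, was not higher in the treated cells. It had 1973, 1674 and 1484 normalized counts in BMSC-C and 1583, 1252 and 1221 in BMSC-CT, so the highest treated library lay within the control range. The log2 difference was -0.34, with an interval of -0.84 to 0.16 (limma adjusted p = 0.264); leaving out BMSC-CT replicate 3 gave -0.27. The differences of Mdm2 and Ccng1 moved in both directions with the processing. With each library's slope against gene length taken out they were 0.01 and 0.08. Scaled to total reads they were -0.76 and -0.75, and with quantile normalization -0.55 and -0.65. With library weights both were called lower (limma adjusted p = 0.0020 and 0.0007), where 39.8% of all genes were.

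Gdf15, a secreted member of the TGF-β superfamily and a marker of cell stress, had 964, 1206 and 1698 normalized counts in BMSC-C. In BMSC-CT it had 4446, 5641 and 9966, all above the controls, and replicate 3 was 1.98 times the mean of the other treated libraries. The log2 fold change was 2.33 (SE 0.36, interval 1.45 to 3.20, limma adjusted p = 0.0094), and 2.0 without replicate 3 (limma adjusted p = 0.0004). Without BMSC-C replicate 1 or 2 the limma adjusted p was 0.0575 and 0.0594, at values of 2.14 and 2.30.

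**Figure D1:**
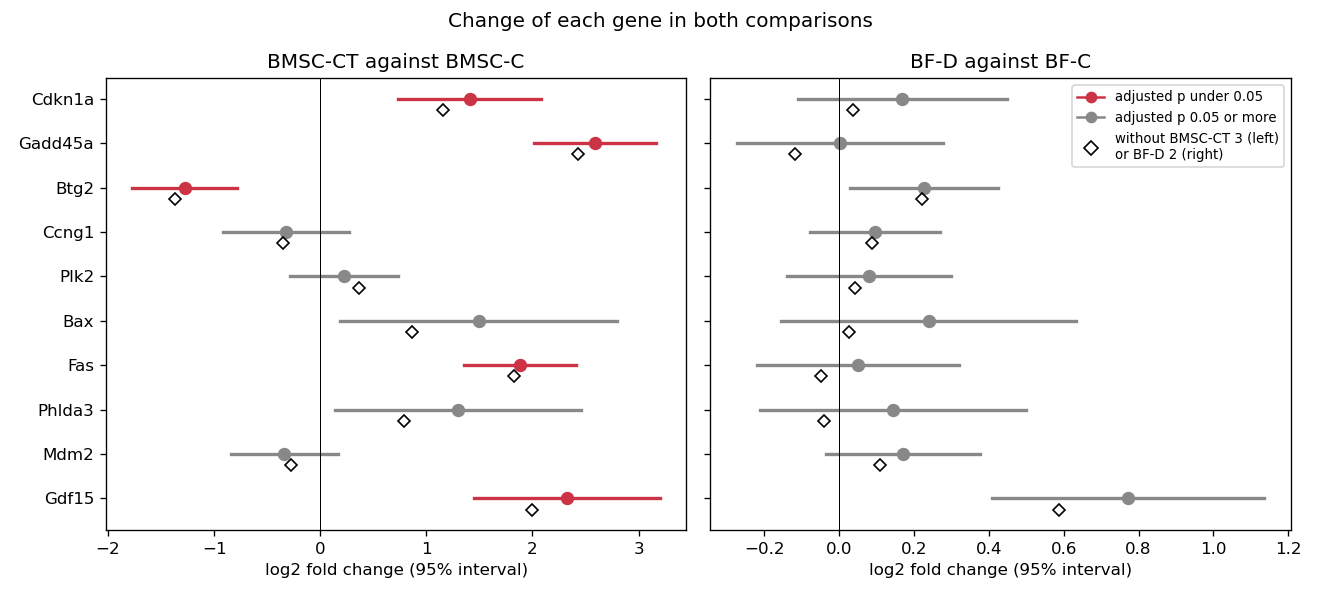
Log2 fold change of each gene with its 95% interval from limma, for BMSC-CT over BMSC-C at left and BF-D over BF-C at right, on axes of different range; open diamonds give the value without the library that stood apart. Gadd45a, Gdf15, Fas and Cdkn1a lie to the right of 0 and Btg2 to the left in the first comparison, and in the second Gdf15 at 0.77 is the farthest from 0, with an adjusted p of 0.413.

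In normalized counts, 7 of the 10 genes were highest in BMSC-CT replicate 3 within their group, and the shorter genes stood out more. In RPKM, which scales to total reads, Gdf15, Bax and Phlda3 were highest there, Cdkn1a was between the others, and the other 6 genes were lowest there. The ratio in normalized counts of that library to the mean of the other 2 was 3.70 for Bax, 2.85 for Phlda3 and 1.98 for Gdf15, which are 1277, 1423 and 912 bases long. It was 0.734 for Plk2, 0.861 for Mdm2 and 1.03 for Ccng1, at 2782, 2930 and 3239 bases. Gadd45a, at 1241 bases, had a ratio of 1.39 and is an exception among the short genes. BF-D replicate 2 was the highest of its group in 9 of the 10 genes, all but Ccng1, with ratios in normalized counts from 1.01 for Btg2 to 1.55 for Bax. The part of RNA quality in these ratios was not tested. With the length trend of each library removed from the values, the same 4 genes were called higher and Btg2 lower, where 12.5% and 10.7% of all genes were called.

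**Figure D2:**
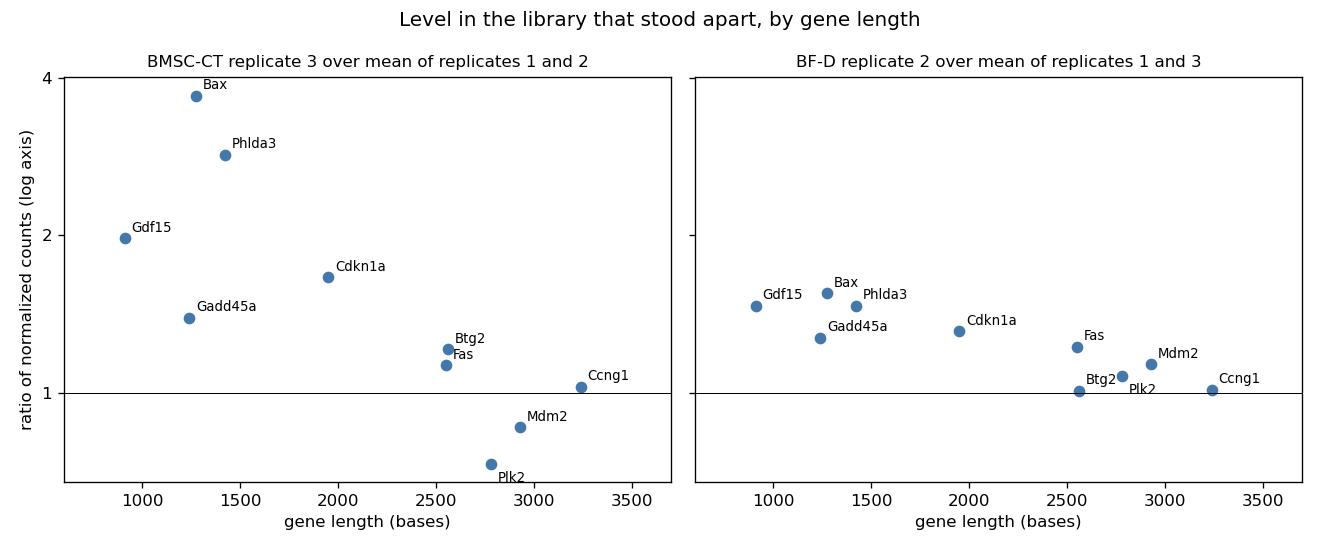
Ratio of each gene in the library that stood apart to the mean of the other 2 treated libraries of its group, on a log axis, against gene length in bases, for BMSC-CT replicate 3 at left and BF-D replicate 2 at right. Bax and Phlda3 have the highest ratios at left, 3.70 and 2.85, and the 5 longest genes, Fas, Btg2, Plk2, Mdm2 and Ccng1, lie between 0.734 and 1.21.

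Docetaxel went with no called change in these genes. In the test across 17076 genes, limma called 0 of the 10 higher and 0 lower, and edgeR did the same. Of the 10, 2 had an unadjusted limma p under 0.05, Gdf15 and Btg2, where 1058 of the 17076 genes did. The same test called 1 gene higher and 1 lower over the whole table, 0.00586% in each direction, so few genes of any kind passed. All 10 estimates were above 0, with a median log2 difference of 0.16 against -0.00 for all genes. Without BF-D replicate 2 the median was 0.04, and 7 of the 10 were above 0.

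Gdf15 was the member with the largest difference. It had 1235, 1143 and 1291 normalized counts in BF-C and 1806, 2695 and 1867 in BF-D, and each docetaxel library was above each control. The log2 difference was 0.77 (SE 0.16, interval 0.41 to 1.14), which is 1.71-fold, with a limma adjusted p of 0.413. Without BF-D replicate 2 it was 0.59 and was called (limma adjusted p = 0.0003), where 0.729% of all genes were called higher and 0.811% lower. DESeq2 on the recovered reads also called it, at 0.80 with an adjusted p of 0.0103, where it called 0.217% of genes higher and 0.205% lower. Library weights gave 0.60 and a limma adjusted p of 0.0049, at 0.422% and 0.31% of genes called. The call for Gdf15 thus depends on the tool, the weights and BF-D replicate 2.

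Btg2 had 826, 808 and 779.7 normalized counts in BF-C and 929, 948 and 946 in BF-D, again with no overlap. The means were 805 ± 23.4 and 941 ± 10.4 (SD, n = 3), a log2 difference of 0.23 with an interval of 0.03 to 0.42 (limma adjusted p = 0.706). Without BF-D replicate 2 the difference was 0.22 (limma adjusted p = 0.122). Mdm2, with 2021, 1902 and 1949.8 in BF-C and 2090.3, 2399 and 2131 in BF-D, and Ccng1, with 7897, 7844 and 8127 against 8731, 8594 and 8187, also did not overlap. Their log2 differences of 0.17 and 0.10 had intervals of -0.04 to 0.38 and -0.08 to 0.27, and were 0.11 and 0.09 without BF-D replicate 2. With Gdf15 and Btg2 this makes 4 of 10 genes with every docetaxel library above every control, where the share over all genes was 7.78%, and 0 of 10 the reverse, where it was 9.04%.

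Cdkn1a had 6292, 6713 and 6794 normalized counts in BF-C and 6861, 8894 and 6677 in BF-D. The high value came from replicate 2: the log2 difference was 0.17 (interval -0.11 to 0.45) with it and 0.04 without it. Gadd45a overlapped fully, at 1408, 1535 and 1516 in BF-C and 1408, 1750.3 and 1332 in BF-D, and its difference of 0.00 had an interval of -0.27 to 0.28 (-0.12 without replicate 2). Bax had 2212, 2221 and 2225 in BF-C and 2167, 3513 and 2361 in BF-D, so that replicate 2 alone lay far from the controls, and the difference of 0.24 became 0.03 without it. Phlda3 had 3757, 3780.3 and 3872 against 3522, 5435 and 3878, with a difference of 0.14 that became -0.04. Fas and Plk2 differed by 0.05 and 0.08, with intervals of -0.22 to 0.32 and -0.14 to 0.30, or by -0.05 and 0.04 without replicate 2. The intervals of these 6 genes reach at most 0.63, that of Bax, and at least -0.27, that of Gadd45a. The comparisons use different control libraries and were normalized separately, and the difference between them was not tested.

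Levels across the 4 groups can be set side by side per length, as RPKM (recovered reads divided by gene length and by the library total), but only as a description, because the groups lie in 2 separately processed tables. On this scale, by means of all libraries, Gadd45a, Gdf15, Bax and Phlda3 were highest in BMSC-CT, and the other 6 genes in BF-D. For Cdkn1a and Fas that rank rests on BF-D replicate 2, and for Plk2 on the low BMSC-CT replicate 3. Cdkn1a had 212, 276 and 209 in BF-D, against a mean of 220 in BMSC-CT. Fas had 13.25, 16.02 and 12.97 in BF-D, against a mean of 13.33 in BF-C. Plk2 had 21.2, 19.3 and 8.88 in BMSC-CT, against a mean of 19.2 in BF-D. Gadd45a had mean levels of 82.0 ± 12.9 for BMSC-C, 370 ± 70.6 for BMSC-CT, 71.4 ± 3.46 for BF-C and 73.0 ± 10.7 for BF-D (SD, n = 3). Only BMSC-CT stood clear of the others; the remaining groups overlapped with their neighbours in the order. Gdf15 had 95.5 ± 25, 352 ± 44.3, 79.9 ± 5.22 and 141 ± 32.7 in the same order of groups. Its order was BF-C, BMSC-C, BF-D and BMSC-CT from low to high, and only the last step had no overlap between libraries.

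Cdkn1a was lowest in BMSC-C, at 111 ± 15.4, and stood at 220 ± 10.1 after treatment, 202 ± 9.0 in BF-C and 232 ± 37.8 in BF-D. From low to high the groups ran BMSC-C, BF-C, BMSC-CT and BF-D, and only the last step overlapped. Fas followed a related order, with 3.78 ± 0.412 for BMSC-C, 10.6 ± 2.23 for BMSC-CT, 13.3 ± 0.439 for BF-C and 14.1 ± 1.69 for BF-D. BF-C and BF-D overlapped for Fas, and the lower steps did not. Ccng1 was far higher in the BF cells, at 146 ± 3.53 and 159 ± 4.47 in BF-C and BF-D, than in BMSC-C and BMSC-CT, at 63.6 ± 14.7 and 38.7 ± 13.8.

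Btg2 was lowest in BMSC-CT, at 6.44 ± 1.14, and lay at 18.7 ± 0.451 in BF-C, 20.8 ± 0.946 in BMSC-C and 22.2 ± 0.327 in BF-D, with no overlap at any step. Mdm2 had 39.7 ± 6.49 for BMSC-C, 24.5 ± 9.41 for BMSC-CT, 39.8 ± 1.19 for BF-C and 45.6 ± 3.42 for BF-D, and its neighbouring groups overlapped except BF-C and BF-D. Bax had 80.7 ± 17.6, 180 ± 90.0, 104 ± 0.817 and 127 ± 34.3 in that order of groups, and Phlda3 154 ± 43.7, 283 ± 95.3, 159 ± 3.40 and 182 ± 43.1. For Phlda3 no neighbouring groups were free of overlap, and for Bax only BMSC-C and BF-C were. Plk2 was nearly level in its group means, which lay between 16.5 and 19.2 with overlap at every step. Its BMSC-CT libraries had 21.2, 19.3 and 8.88, the low value in replicate 3, for a mean of 16.5 ± 6.64.

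**Figure D3:**
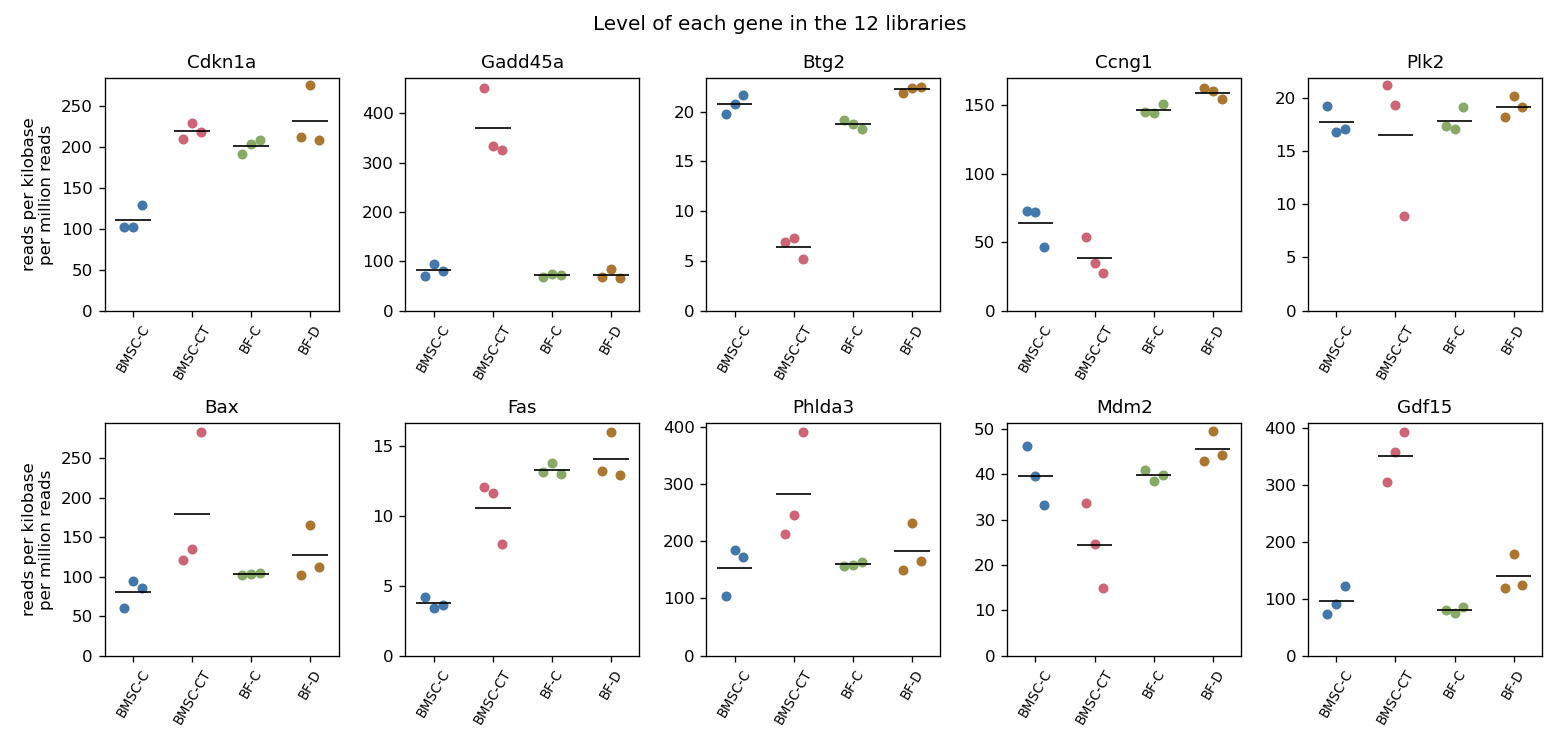
Level of each of the 10 genes in RPKM (reads per kilobase and library total) in the 12 libraries, 1 point per library and a line at the group mean of 3 libraries, each panel on its own axis from 0. Gadd45a and Gdf15 are set apart in BMSC-CT, Btg2 is lowest there, and Ccng1 is highest in both BF groups.

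By a fixed rule, the genes with the pattern most like that of Cdkn1a were sought among 13099 genes, as Pearson correlations over the 12 libraries on the log2(RPM + 1) scale, RPM being reads scaled to the library total. Fdps, an enzyme of the mevalonate pathway, had the highest, at r = 0.97, followed by Tmem254 and Itm2c, both also at r = 0.97. The points share libraries, depth and the 2 tables, and much of the pattern is the low level in BMSC-C: Fdps had a mean of 115 RPM there and 280.1, 263 and 325 in BMSC-CT, BF-C and BF-D.

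The genes that control p53 were read beside its targets. Of 16 genes of this circuit tested in the BMSC comparison, limma called 0, where 7.7% of all genes were called higher and 10.9% lower. An unadjusted limma p under 0.05 was found for 4 of the 16, and for 6489 of all 16818 genes. The only call by edgeR and by DESeq2 was Cdkn2a, higher, where 8.05% and 16.5% of all genes were. The median log2 difference of the circuit was -0.41, with -0.20 when BMSC-CT replicate 3 was left out and 0.03 when the length trend was removed, so its direction depends on the processing. Cdkn2a, whose ARF product restrains MDM2 and whose p16 product restrains CDK4, had 267, 250.4 and 361 in BMSC-C and 527, 604 and 1488 in BMSC-CT. Its log2 difference of 1.43 narrowly missed the threshold (limma adjusted p = 0.0615) and was 0.96 without BMSC-CT replicate 3 (limma adjusted p = 0.0058). Mdm4, the partner of MDM2, and Ppm1d, a phosphatase that resets the damage response, differed by -1.27 and -0.34 (limma adjusted p = 0.151 and 0.326), or by -0.73 and -0.44 once that library was left out. Atm, a damage kinase, Usp7, a deubiquitinase of MDM2, and Rfwd2, another p53 ligase, were then called lower, at -0.79, -0.75 and -0.58. These are 3 of the 16 genes, where 23.5% of all genes were called lower. Cdkn2a was the 1 called higher, where 19.5% of all genes were.

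Of 23 other p53 targets tested, 3 were called higher and 2 lower, where 7.7% and 10.9% of all genes were, with a median log2 difference of 0.06 (-0.36 scaled to total reads). Plk3, a stress-activated polo-like kinase, was higher by 1.36 (limma adjusted p = 0.0209), with means of 661 ± 156 and 1699 ± 419 (SD, n = 3), and Sesn2, a brake on mTORC1, by 0.64 (limma adjusted p = 0.0422). Ei24, named here after its value was seen, was higher by 0.65 (limma adjusted p = 0.0488). Ddit4, another brake on mTORC1, was 2.0-fold lower and Bcl6, a transcriptional repressor, 2.43-fold lower (limma adjusted p = 0.0249 and 0.0254). Sesn2 and Ei24 were not called by edgeR, and all 5 calls were lost without BMSC-CT replicate 2 and without BMSC-C replicate 1 or 2; without BMSC-C replicate 3 Plk3 alone was called. Those fits with 1 library left out called 249 to 462 of all genes higher and 487 to 832 lower. Leaving out BMSC-CT replicate 3 gave 7 higher and 4 lower, where 19.5% and 23.5% of all genes were called, with a median of 0.19. Plk3 then differed by 1.17.

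Of 19 other growth arrest genes tested, 1 was called higher and 4 lower, where 7.7% and 10.9% of all genes were, with a median log2 difference of -0.57. Leaving out BMSC-CT replicate 3 moved that median to -0.016, with 2 called higher and 5 lower, where 19.5% and 23.5% of all genes were. Cdkn2b, which encodes the CDK inhibitor p15 and is a classical TGF-β target, went from 374 ± 23.7 to 749.5 ± 66 normalized counts (log2 1.00, limma adjusted p = 0.0185; 0.95 with BMSC-CT replicate 3 left out). Cdkn1b, which encodes the CDK inhibitor p27, went from 849.9 ± 114 to 413 ± 120.2 (log2 -1.07, limma adjusted p = 0.0380; -0.92 with that library left out). Btg3, a relative of Btg2, differed by -0.92 and Klf4, a transcription factor that restrains the cycle, by -1.15 (limma adjusted p = 0.0265 and 0.0435). Ccng2, a relative of Ccng1 that was named after its value was seen, differed by -0.79 (limma adjusted p = 0.0477). All 5 calls named here were lost when BMSC-CT replicate 2 or any 1 control was left out. Those fits called 249 to 462 of all genes higher and 487 to 832 lower. With edgeR 1 gene of the list was called higher and 2 lower, where 8.05% and 9.51% of all genes were.

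Proliferation genes gave 1 call in each direction of 24 tested, where 7.7% of all genes were called higher and 10.9% lower, with a median log2 difference of -0.01 (-0.43 scaled to total reads and 0.43 with quantile normalization). The list had few reads. Together, with Ccnd1 included, it took 0.046% to 0.048% of reads in BMSC-C and 0.017% to 0.023% in BMSC-CT. Mki67, named here only for its low level, had means of 0.17 RPKM in BMSC-C and 0.15 in BMSC-CT. Ccnd1, the cyclin that drives cells through G1, had 3954, 3689 and 4413 normalized counts in BMSC-C and 663, 647 and 594 in BMSC-CT. It was 6.31-fold lower, with a log2 difference of -2.66 (limma adjusted p = 0.0006), or -2.61 leaving out BMSC-CT replicate 3, and was called in every alternative tried. Ccne1, the cyclin of entry into S phase, had a low level and was higher, at 79.0 ± 5.37 and 176 ± 34.7 (log2 1.13, limma adjusted p = 0.0372). The call for Ccne1 was lost scaled to total reads, with a replicate block, and without BMSC-CT replicate 2 or any 1 control. Leaving out BMSC-CT replicate 3 gave 4 higher and 5 lower, where 19.5% and 23.5% of all genes were called, with a median of -0.14.

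Genes of the ATF4 stress response, which share Gdf15 and Gadd45a as known downstream genes, had calls in both directions. Of 12 tested, 3 were called higher and 6 lower, where 7.7% and 10.9% of all genes were, with a median of -0.71. Leaving out BMSC-CT replicate 3 gave 4 higher and 6 lower with a median of -0.92, where 19.5% and 23.5% of all genes were called. Leaving out BMSC-CT replicate 2 or any 1 control gave 2 in each direction, Ddit3 and Trib3 higher and Psat1 and Asns lower. Those fits called 249 to 462 of all genes higher and 487 to 832 lower, of 16768 to 16888 tested. Ddit3, which encodes CHOP, had 1262, 1068 and 1206 normalized counts in BMSC-C and 16818, 16341 and 71285 in BMSC-CT, a log2 fold change of 4.52 (limma adjusted p = 0.0045) and 3.82 without replicate 3. Trib3, a pseudokinase induced by CHOP, was higher by 2.26 (limma adjusted p = 0.0068) and Atf3 by 1.29 (limma adjusted p = 0.0278). The 6 that fell included Psat1 and Asns, enzymes of serine and asparagine synthesis, with log2 differences of -2.65 and -1.64 (limma adjusted p = 0.0026 and 0.0031), or -2.94 and -1.73 with BMSC-CT replicate 3 left out.

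**Figure D4:**
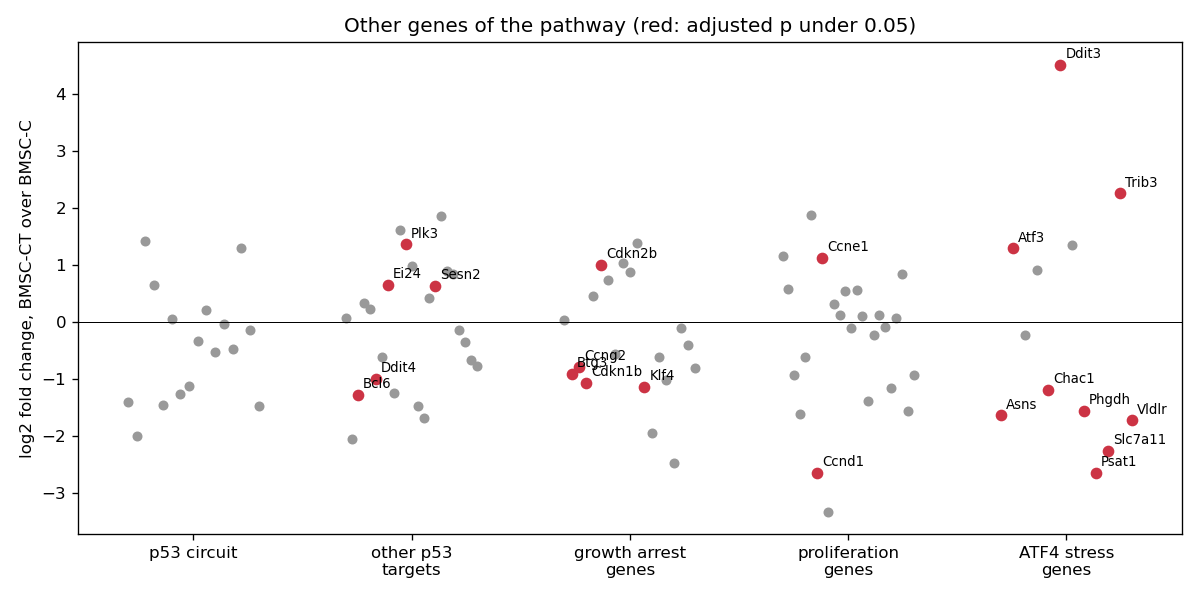
Log2 fold change, BMSC-CT over BMSC-C, of the other genes of the pathway and of the proliferation and ATF4 lists, 1 point per gene spread sideways for legibility, with genes at a limma adjusted p under 0.05 in red and named. The p53 circuit has no red point, Ccnd1 is the lowest red point at -2.66, level with Psat1, and Ddit3 the highest at 4.52.

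With docetaxel, limma and edgeR called 0 genes in each of these 5 lists. An unadjusted limma p under 0.05 was found for 0 of 16 circuit genes and 1 of 24 other targets. It was found for 3 of 19 growth arrest genes, 2 of 24 proliferation genes and 1 of 12 ATF4 genes. Over all genes it was found for 1058 of 17076. The median log2 differences of the 5 lists ran from -0.18 to 0.19, and from -0.16 to 0.01 without BF-D replicate 2. Gas1, a growth arrest gene of the cell surface, had 1954, 1758 and 1927 normalized counts in BF-C and 1363, 1271 and 1357 in BF-D, with no overlap. Its log2 difference was -0.50 (limma adjusted p = 0.386), DESeq2 called it lower, and so did limma without BF-D replicate 2 (-0.46, adjusted p = 0.0012). Without that library Klf4 was also called lower, at -0.23, and Ccnd1 higher, at 0.46.

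The authors' deposited table of their own tests gives 6 of the 10 genes as higher and 1 as lower in BMSC-CT at an adjusted p under 0.05, where it gives 14.5% of its genes in each direction. It gives Gdf15 alone of the 10 as higher with docetaxel, with a log2 fold change of 0.80 and an adjusted p of 0.0093, where 0.191% of its genes are higher. In the authors' deposited table of KEGG pathways, 3 of 9 terms for BMSC-CT hold at least 1 of the 10 genes. One is Melanoma, with Cdkn1a, Gadd45a and Bax among the 35 genes counted there under the term. The others are Cytokine-cytokine receptor interaction, with Gdf15 and Fas among 94 genes, and PI3K-Akt signaling pathway, with Cdkn1a among 135. Of 20 terms in the authors' deposited table for docetaxel, 1 holds any of the 10 genes. It is again Cytokine-cytokine receptor interaction, with Gdf15 among the 37 genes counted there. Of the authors' deposited Gene Ontology terms, 3 of 6 for BMSC-CT and 4 of 15 for docetaxel hold any of the 10 genes, each time Gdf15 alone.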

How the data were processed

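Each comparison has its own deposited table, separately normalized, of 18616 genes for the BMSC groups and 19355 for the BF groups. Per the file headers the deposited values are normalized counts (a signal per gene and library); they are whole reads divided by a size factor, since within each library 100% of them are whole-number multiples (tolerance 0.01) of its lowest value, and reads were recovered from that. The same deposited tables hold log2 fold changes and p-values computed by the authors. Bowtie 0.12.2 and mm8 are named in the submitters' processing notes; mm8 is a mouse build while the IDs are rat Ensembl IDs, so the build is not given in the sources used here and no coordinates of the tables are printed. How reads were assigned to genes, and whether strand was used, is not stated. IDs without a symbol (904 and 745) took 0.641% to 1.55% of reads; they were tested and not named. No value column was left without a sample (0).

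The main test was limma 3.58.1 with a mean-variance trend in R 4.3.3, on log2(normalized count + 1), kept to genes whose mean reached 1, within a table, adjusted by Benjamini-Hochberg. Alternatives were edgeR 4.0.16, DESeq2 1.42.0 and limma-voom on the recovered reads, other pseudocounts, filters and scalings, library weights, removal of each library's length trend, a replicate block and each library left out. An exact permutation test of 3 against 3 cannot go below 0.1. The procedure was tested on simulated data. These held no library that stood apart and no length trend, so that test does not cover either feature. Levels per length (RPKM) were computed from the recovered reads and the deposited gene length.

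The 10 genes and the gene lists were chosen with earlier results of these data known. Named besides the 10 genes were up to 4 genes per list with the smallest adjusted p in a comparison, where the text treats them, and Mdm4, Ppm1d and Cdkn2a; others are marked or follow from a count. Endothelial markers took at most 0.0086% of reads, adipocyte markers 0.0029% to 0.110% and cartilage markers 0.0032% to 0.0505%. One gene covered by this rule is not reported here.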

Additional observations from a re-analysis of the deposited data

How the results depend on the processing

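Of the fold changes of the 10 genes under the alternatives, 347 kept their direction and their side of the threshold, 9 lost a call, 12 gained one and 12 changed sign, all of the last among genes not called. Gadd45a and Fas were called in BMSC-CT under all 19 alternatives. Of the counts for the other 5 lists over both comparisons, 309 stayed within 1.5 times and 71 moved. In BF-D every main count of these lists was 0, and a count that stayed at 0 is among the 309. Most of the 71 that moved were in BMSC-CT.

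With library weights, 7 of the 10 genes were called higher and 3 lower in BMSC-CT, among 12357 calls over all genes in place of 3134, and 1 was called higher in BF-D, among 125 in place of 2. The weights did not fully converge. DESeq2 called 5531 genes in BMSC-CT, and 72 in BF-D, with 1 of the 10. In BF-D a mean of at least 10 and limma-voom each called 0 genes and removal of the length trend 11. With 1 library left out, the calls ranged from 2 to 6 higher and 0 to 1 lower of the 10 genes and from 736 to 7204 of all genes in BMSC-CT, and from 0 to 1 higher of the 10 and 0 to 264 of all genes in BF-D. The highest counts came without BMSC-CT replicate 3 and without BF-D replicate 2.

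Scaling to total reads moved the median log2 difference of all BMSC genes by -0.39, quantile normalization by 0.23 and removal of the length trend by 0.17. Calls over all BMSC genes were 1295 higher and 1839 lower, and then 787 and 1967, 1929 and 1794, and 2103 and 1804. The 10 genes kept 4 higher and 1 lower under each.

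Signs changed in BMSC-CT for Mdm2 (0.014) and Ccng1 (0.082) with the length trend removed and for Plk2 (-0.20) scaled to total reads. In BF-D they changed for Gadd45a with quantile normalization (-0.0030), weights (-0.089) and the length trend removed (-0.090), for Fas with weights (-0.028) and for Phlda3 with weights (-0.044). With 1 library left out, the BF-D values ran from -0.12 to 0.080 for Gadd45a, -0.047 to 0.11 for Fas and -0.041 to 0.27 for Phlda3, lowest without BF-D replicate 2. The causes were not tested.

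Deviations of same-numbered libraries correlated at 0.20, -0.02 and 0.18 in BMSC and at 0.01, 0.02 and -0.00 in BF. In BMSC, treated replicate 1 with control replicate 3 gave -0.23, and treated 3 with control 1 gave -0.18. Treated replicate 2 correlated more with control replicate 1, at 0.09, than with control replicate 2. Whether replicate numbers mark libraries prepared together was not tested. With a replicate block, 4 of the 10 genes were called higher and 1 lower among 3003 genes in BMSC-CT, and 0 of the 10 among 0 genes in BF-D. The block also left 1 call in each direction among the other growth arrest genes and none for Ccne1 in BMSC-CT.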
